A study of Mus musculus with 138 samples.

Results

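The genes described here are the cyclins, kinases and phosphatases that drive a cell into M phase, followed in mouse embryos at the 2-cell stage after loss of the chromatin remodeller SMARCA5. They are 10 of the 25900 genes in the count tables and were chosen by name for their role, not by a measured value. Mos, Wee2 and Ccnb3 are the oocyte-specific members, and Ccnb1, Ccnb2, Ccna2, Cdk1, Cdc25a, Cdc25b and Plk1 are the 7 general members. Polyadenylated RNA was sequenced with 1 library per embryo in the RNA arm of scNMT-seq, a method that profiles a sample's transcripts together with methylated and accessible DNA. The series addresses whether SMARCA5 supplied by the egg is needed when the embryo's genome is activated.

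The maternal deletion group held 28 libraries of embryos labelled Smarca5 +/-, made by crossing females whose oocytes lack Smarca5 with wild-type males. The wild-type group held 22 libraries labelled Smarca5 +/+. Titles of both genotypes name knockout females, the promoter that drives the deletion is not given in the sources used here, and the embryo's own genotype cannot be told apart from the loss in the egg. In the TrimAway experiment all embryos were wild type. TrimAway uses TRIM21, a receptor for antibodies, to send a protein bound by an injected antibody to degradation. The anti-SMARCA5 group held 31 libraries of embryos injected at the zygote stage with an antibody to SMARCA5, the IgG group held 20 libraries of embryos injected with IgG, and the uninjected group held 15 libraries. A replicate number stands for a pool of embryos collected together, from several matings in the deletion experiment. It is called a collection below, and the tests measure the spread between single embryos of these pools.

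Entry into M phase is switched by Cdk1 bound to a cyclin. Kinases of the Wee family hold this complex inactive by phosphorylating Cdk1, and the Cdc25 phosphatases release it, with Plk1 promoting the release. The oocyte runs the same switch with parts of its own: Wee2 helps to keep the oocyte in its long prophase arrest, and Mos starts the MAP kinase cascade that holds the ovulated egg in metaphase. Many oocyte transcripts are degraded between ovulation and the 2-cell stage, when transcription from the embryo's genome starts.

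Libraries under 100000 total counts were left out, which removed 19 of 135 embryo libraries, among them all 6 of the IgG libraries of collection 2. The 116 kept libraries held between 109007 and 12004992 counts. Median totals were 545264 in wild type and 1618485 in maternal deletion, and in collection 2 they were 650104 and 4686051. Numbers of libraries at 0 or at most 3 counts are therefore not on the same footing in these groups. Levels are given as TMM-scaled CPM, counts set relative to the library total after a scaling that evens out differences in library composition. Smarca5 itself ranged from 153 to 794 in wild type (median 362) and from 3.31 to 322 in maternal deletion (median 94.4), and edgeR gave -2.06 as its log2 fold change (SE 0.31, adjusted p = 2.63e-07). Its RNA is no check of TrimAway, which removes protein. Trim21 RNA was present in 30 of 31 anti-SMARCA5 libraries, in 8 of 20 IgG libraries, these 8 from collection 3, and at no more than 1.65 TMM-scaled CPM in uninjected embryos. Some libraries went against their labels. One library labelled maternal deletion (well A04, collection 2) had 319 TMM-scaled CPM of Smarca5 and 22.4 of the oocyte gene Gdf9, where the other 27 had at least 1076 of Gdf9. A pair of libraries labelled wild type (wells G05 and H05, collection 2) had the lowest Smarca5 and the highest Gdf9 of their group, and the anti-SMARCA5 library of well C02 (collection 2) had no Trim21. Results that these libraries move are given with and without them.

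Sequences before the start site are shown for Cdk1, Ccnb1, Ccnb2 and Wee2, the kinase that fell, its 2 B-type partners in mitosis and the inhibitor that rose, with motifs known from cell cycle genes. CCAAT is bound by the factor NF-Y, and TTTGAA is the core of the element through which the DREAM complex and its activating partners control late cell cycle genes. RefSeq (GRCm38.p6) gave a window of 250 bases before the start of 8 of the 10 genes. Mos and Ccna2 had no entry. Below, both motifs are in capitals on either strand (ATTGG is CCAAT read from the other strand), 5′ to 3′. Bases that GENCODE M21 places inside the gene are left out, which shortens the windows of Cdk1 and Ccnb1 by 26 and 84 bases. The stretches are chr10:69352939-69353162 (minus strand), chr13:100786571-100786736 (minus), chr9:70421555-70421804 (minus) and chr6:40442613-40442862 (plus).
Cdk1: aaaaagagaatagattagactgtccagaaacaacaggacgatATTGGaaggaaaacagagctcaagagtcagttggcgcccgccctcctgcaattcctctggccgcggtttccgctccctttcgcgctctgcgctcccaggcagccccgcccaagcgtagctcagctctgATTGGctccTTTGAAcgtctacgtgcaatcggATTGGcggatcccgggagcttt
Ccnb1: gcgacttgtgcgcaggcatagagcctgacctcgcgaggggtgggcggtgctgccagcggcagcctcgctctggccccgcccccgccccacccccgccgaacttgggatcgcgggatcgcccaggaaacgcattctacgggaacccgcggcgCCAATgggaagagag
Ccnb2: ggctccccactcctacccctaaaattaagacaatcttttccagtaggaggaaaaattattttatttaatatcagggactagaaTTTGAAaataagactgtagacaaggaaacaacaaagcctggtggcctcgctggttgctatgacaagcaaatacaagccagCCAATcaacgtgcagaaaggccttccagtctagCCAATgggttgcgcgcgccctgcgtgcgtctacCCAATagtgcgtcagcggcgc
Wee2: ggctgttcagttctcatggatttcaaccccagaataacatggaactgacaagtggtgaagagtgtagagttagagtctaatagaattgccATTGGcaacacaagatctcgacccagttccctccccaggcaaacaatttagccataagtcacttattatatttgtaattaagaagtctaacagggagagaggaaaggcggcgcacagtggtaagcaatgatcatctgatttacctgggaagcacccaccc

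In the full windows, CCAAT occurred at 3 places for Cdk1 and for Ccnb2, at 2 for Ccnb1 and Cdc25a, at 1 for Cdc25b, Wee2 and Plk1, and at none for Ccnb3. TTTGAA occurred at 2 places for Cdk1 and at 1 for Ccnb2. Of 32851 RefSeq windows of this length, 33.8% held CCAAT, 10.1% held it at 2 or more places, 16% held TTTGAA and 5.55% held both. Cdk1 and Ccnb2 were the 2 members whose windows held both motifs. The window of Wee2 was 44.4% G and C with 3 CG pairs, against 56.4% and 19 for Cdk1 and 69.6% and 28 for Ccnb1. A match is a description of these letters only.

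The last 100 bases of the transcript are shown for another reason: in oocytes, the cytoplasmic polyadenylation element recruits CPEB proteins and sets when a stored mRNA regains its poly(A) tail, and these libraries were made from polyadenylated RNA. For each member the longest coding transcript with a consensus coding sequence (GENCODE M21) was used. TTTTAT or TTTTAAT, 2 forms of that element, were found there in 2 members. Wee2 had 2 matches, the last starting 18 bases before the end, and Ccnb3 had 1, starting 68 bases before the end. The matches below are in capitals.
Wee2: tgtaaataaagaTTTTATcttatccaaaga
Ccnb3: cttgaaattacTTTTATgaaagaagagaaa
Either form was present in the last 100 bases of 16.6% of 21828 coding genes. For these genes the longest protein-coding transcript of any kind was used, so the transcripts were not chosen alike. Mos and the 7 general members had no such match in this window. AATAAA, the usual poly(A) signal, was present in every member but Plk1, and in 61.6% of the 21828 coding genes.

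Levels of different genes were compared per kilobase of the longest coding transcript with a consensus coding sequence, as TMM-scaled CPM per kb. In wild-type embryos Ccnb1 was highest, with a median of 440 CPM per kb (quartiles 374 and 535, 22 libraries), followed by Ccna2, the cyclin of S phase and late interphase, at 205 (148 and 237). Cdk1 came next at 75.9 (65.0 and 113), with Wee2 at 60.8 (13.3 and 131), Plk1 at 55.8 (31.1 and 104) and Ccnb2 at 52.3 (27.3 and 63.0). The quartile ranges of these 4 genes overlapped from each gene to the next, whereas those of Ccnb1, Ccna2 and Cdk1 did not. Cdc25a, at 7.38, Cdc25b, at 4.42, Ccnb3, at 0.575, and Mos, at 0, made up the low end. Uninjected embryos gave the same order for the 8 highest genes.

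In maternal deletion embryos the order changed. Wee2 was highest, at 240 CPM per kb (178 and 355, 28 libraries), above Ccnb1 at 170 (125 and 267) and Ccna2 at 154 (112 and 213), although these quartile ranges overlapped. Cdk1 fell to the 9th place, at 3.52 (0.345 and 15.7), while Mos stood 6th at 17.4 (8.32 and 42.4). The level of Cdk1 per kb depends on the transcript: with the shorter coding transcript of 1253 bases in place of 4375, its wild-type median was 265 and its maternal deletion median 12.3. The level of Ccnb1 is uncertain as well, since 42.1% of the 50-base words of its transcript also occur in transcripts of other genes, chiefly the pseudogene Ccnb1-ps. That share was 6.84% for Plk1, through Plk-ps1, and 0 for the other 8 members. Genes on the opposite strand overlap Ccna2 (Exosc9), Cdc25b (Spef1) and Plk1 (Gm44985), and whether the counting used strand is not given in the sources used here.

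**Figure D1:**
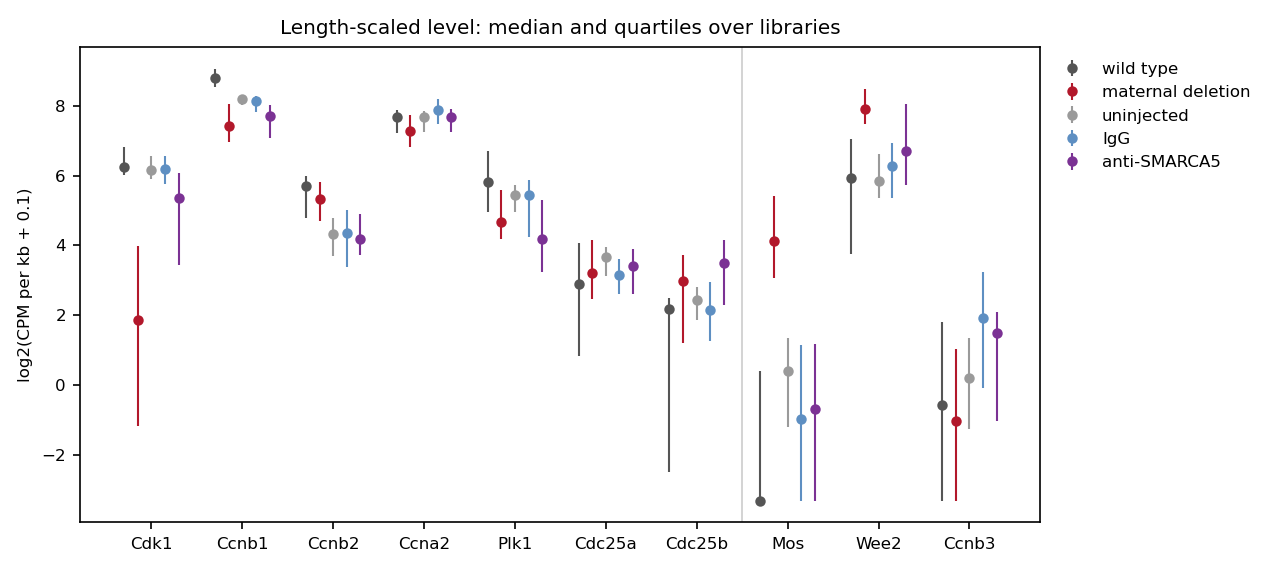
Median (point) and quartiles (bar) of the level of each gene per kb of transcript over the libraries of each group, as log2(CPM per kb + 0.1), so that a median of 0 lies at the bottom. The vertical line separates general members (left) from oocyte-specific ones. Cdk1 in maternal deletion lies far below the other groups, and Mos and Wee2 lie above them.

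Among the oocyte-specific members, Mos and Wee2 rose in maternal deletion embryos, and Ccnb3 was too low to pass the filter on counts. Among the general members, Cdk1 and Ccnb1 fell. These 4 were called of the 9 members that passed the filter on low counts (edgeR's quasi-likelihood test, adjusted p under 0.05 over all genes tested), 2 higher and 2 lower, where 56.6% of all 8518 genes tested were called, 30.3% higher and 26.4% lower. The share of called members is therefore not above that of all genes. The same 4 were called with the collection as a block, where 57.6% of genes were called, and 7 were called when only total counts were used for scaling (56.6% of genes).

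Mos ranged from 0 to 15.3 TMM-scaled CPM in wild-type embryos, with a median of 0 and 16 of 22 libraries at or under 3 counts. In maternal deletion embryos it ranged from 0 to 161 with a median of 25.3, and 19 of 28 libraries lay above every wild-type library. The groups overlapped at the low end, where 6 maternal deletion libraries held at most 3 counts. Wild-type libraries had the lower median total, so 3 counts stood for a higher CPM in a typical wild-type library. Its log2 fold change was 3.75 (SE 0.74, adjusted p = 3.67e-05), a fitted value that depends on how counts of 0 are handled. It was 4.89 in collection 1 alone (adjusted p = 0.000309) and 3.40 in collection 2 alone (adjusted p = 0.0096). Mos passed the filter through the maternal deletion libraries, so its passing and its rise are not separate observations.

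Wee2, the oocyte's Cdk1 inhibitor, ranged from 5.39 to 1159 TMM-scaled CPM in wild type (median 175) and from 60.9 to 2273 in maternal deletion (median 693). It exceeded the wild-type median in 27 of 28 maternal deletion libraries, and the exception was the library of well A04. The groups still overlapped widely, because wild-type embryos of collection 1 were high (median 473) and those of collection 2 were low (median 60.6). The log2 fold change was 1.49 (SE 0.41, adjusted p = 0.00209), with 0.89 in collection 1 (adjusted p = 0.0121) and 2.1 in collection 2 (adjusted p = 0.00792). Without the libraries of wells A04, G05 and H05 it was 1.81 (adjusted p = 0.000221). The highest wild-type value, 1159, belonged to well G05, and the others of that group reached 880.

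Ccnb3, a cyclin that oocytes need to complete a meiotic division, did not pass the filter. It ranged from 0 to 75.1 TMM-scaled CPM in wild type (median 2.62) and from 0 to 81.3 in maternal deletion (median 1.78), with 8 of 22 and 10 of 28 libraries at 0. The groups overlapped over almost their whole range. In the fit without a filter its log2 fold change was -0.87 (95% interval -2.42 to 0.67, adjusted p = 0.365), so neither a rise nor a loss was detectable at this depth.

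Other oocyte transcripts moved together with Mos and Wee2. The summed level of 10 oocyte and maternal markers, Gdf9 and zona pellucida genes among them and all 10 detected, ranged from 256 to 4695 TMM-scaled CPM in wild type (median 1192) and from 629 to 34980 in maternal deletion (median 11690). The summed level of the 7 measured 2-cell markers had a median of 904 (259 to 1387) in wild type and of 85.8 (9.46 to 1512) in maternal deletion. Among them Obox3 fell (log2 fold change -3.87, adjusted p = 2.75e-05), while Zscan4d was not called (0.27, adjusted p = 0.766). Markers of cumulus and granulosa cells summed to 0 to 9.58 in wild type, with Foxl2, Inhba and Nr5a1 at 0 in every library, and to 0 to 91.3 in maternal deletion, with Ptx3 at 0. Sperm markers reached 3.69 and 38.6, with Tnp1 at 0 in both groups. Their part in the levels of Mos, Wee2 and Cdk1 was not tested. In such whole-embryo libraries, fewer cells of a kind and less RNA per cell cannot be told apart.

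Cdk1, the kinase at the centre of the switch, was lower than in wild type in nearly every maternal deletion embryo. It ranged from 188 to 874 TMM-scaled CPM in wild-type embryos (median 332) and from 0 to 683 in maternal deletion (median 15.4), with 5 maternal deletion libraries at 0. Of 28 maternal deletion libraries 26 lay below every wild-type library, and the highest of the group was well A04, the others reaching 226. In collection 1 all 13 lay below all 8 wild-type libraries (medians 11.4 and 266), and in collection 2 the medians were 33.3 and 460. The log2 fold change was -2.67 (SE 0.55, adjusted p = 7.28e-05), with -4.03 in collection 1 (adjusted p = 4.29e-06) and -2.18 in collection 2 (adjusted p = 0.0123). Without the libraries of wells A04, G05 and H05 it was -3.37 (SE 0.53, adjusted p = 5.26e-07).

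Ccnb1, the main mitotic partner of Cdk1, ranged from 624 to 2537 TMM-scaled CPM in wild type (median 1095) and from 149.8 to 2273 in maternal deletion (median 424). Of 28 maternal deletion libraries 20 lay below every wild-type library. The log2 fold change was -0.90 (SE 0.25, adjusted p = 0.00202). In collection 2 it was -1.18 (adjusted p = 0.000768), and in collection 1 it was -0.41 and not called (adjusted p = 0.439). There, 9 of 13 embryos lay below all wild-type embryos, but 3 lay above all of them, at 1539, 2224 and 2273.

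Ccna2 and Ccnb2, the other cyclins, were not called. Ccna2 ranged from 273 to 1027 in wild type (median 609) and from 89.5 to 1288 in maternal deletion (median 457), with a log2 fold change of -0.15 (95% interval -0.55 to 0.25, adjusted p = 0.533). Ccnb2, a cyclin close to Ccnb1, ranged from 7.72 to 229 in wild type (median 80.0) and from 21.0 to 149.6 in maternal deletion (median 60.8). Its log2 fold change was -0.34 (95% interval -0.88 to 0.19, adjusted p = 0.279), but 0.48 in collection 1 alone (adjusted p = 0.359). Both groups overlapped almost fully for these 2 cyclins, and the intervals allow falls of up to 0.55 and 0.88 on the log2 scale. Scaling mattered here: with total counts only, both were called lower, at -0.46 (adjusted p = 0.021) for Ccna2 and -0.64 (adjusted p = 0.0394) for Ccnb2. That scaling also shifts the median log2 fold change of all genes from 0.18 to -0.036.

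Plk1 ranged from 29.0 to 349 in wild type (median 122.8) and from 1.66 to 477 in maternal deletion (median 55.9), where 21 of 28 libraries lay below the wild-type median. Its log2 fold change of -0.68 (SE 0.35, adjusted p = 0.0909) was not called, although 6 of 11 alternatives called it lower. Cdc25b, the phosphatase that mouse oocytes need to resume meiosis, had a median of 24.2 in maternal deletion (0 to 100) and 13.7 in wild type (0 to 48.7), with 9 wild-type libraries at or under 3 counts. Its log2 fold change was 1.15 (SE 0.58, adjusted p = 0.085). Cdc25a had medians of 33.2 (3.81 to 115) and 26.8 (0 to 159), and its log2 fold change was 0.21 (SE 0.44, adjusted p = 0.691). In collection 1 alone Cdc25a was higher in maternal deletion, with 12 of 13 embryos above the wild-type median and a log2 fold change of 1.67 (adjusted p = 0.0228), while in collection 2 it was 0.050 (adjusted p = 0.95). Within each collection 4 members were called, where 43.8% of genes were called in collection 1 and 39.9% in collection 2.

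For none of the 9 members tested was a difference in the deletion's effect between the collections called (edgeR interaction test, 0.763% of 8518 genes called, 2 members at an unadjusted p under 0.05). These 2 were Ccnb2, at -1.34 (SE 0.55, adjusted p = 0.203), and Cdc25a, at -1.76 (SE 0.85, adjusted p = 0.288). The estimates were imprecise, with 1.78 for Cdk1 (SE 0.99, adjusted p = 0.375), so the lack of a call does not exclude a difference. Without the 3 libraries that went against their labels, the effect on Wee2 was called larger in collection 2, by 2.63 on the log2 scale (SE 0.58, adjusted p = 0.00185), where 12.6% of genes were called. These 3 libraries were picked by Smarca5 and Gdf9, and Gdf9 moved together with Wee2. All 3 are of collection 2, where G05 had the highest Wee2 of wild type and A04 the lowest of maternal deletion. Leaving them out and this larger effect are therefore not separate observations. Each collection was sequenced on a lane of its own, and these 2 sources of difference cannot be told apart.

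**Figure D2:**
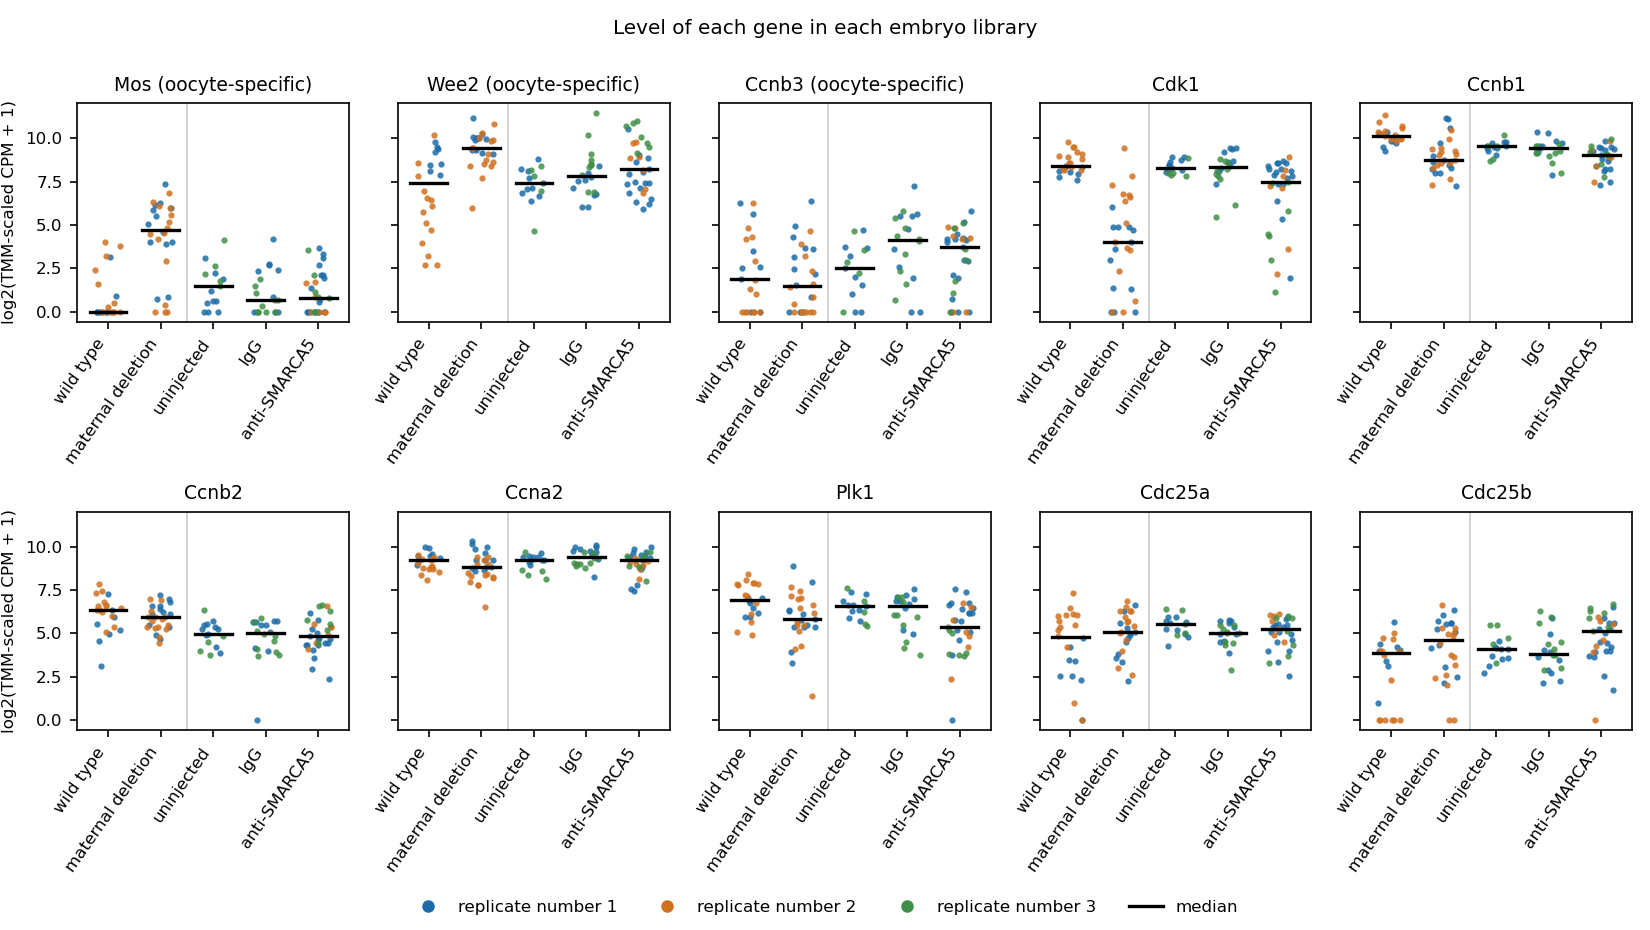
Level of each gene in each library as log2(TMM-scaled CPM + 1), 1 point per embryo, coloured by replicate number, with the group median as a bar. The vertical line divides the maternal deletion experiment from the TrimAway experiment, which were scaled separately. Mos and Wee2 are higher and Cdk1 is lower in maternal deletion than in wild type, and the anti-SMARCA5 group has a tail of low Cdk1 values.

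Degradation of SMARCA5 in the zygote was compared with 2 controls that share their anti-SMARCA5 libraries. Against IgG, none of the 9 members that passed the filter was called, where 3.03% of 10447 genes were called. Of these 9, 3 had an unadjusted p under 0.05, and DESeq2 also called 0. With the collection as a block, on collections 1 and 3, 4 of 9 were called: Cdk1 and Plk1 lower, Wee2 and Cdc25b higher, where 28.1% of genes were called. Against uninjected embryos, Wee2 and Cdc25b rose (2 of 9, 27.9% of 10750 genes called), and with the block the same 4 genes were called in the same directions (4 of 9, 35.1% of genes called). With total counts as the only scaling, neither rise was called against uninjected embryos and 1 member, Ccnb1, was called lower (21.2% of genes called). That scaling changed the calls over all genes from 1885 higher and 1114 lower to 409 and 1874, and its median log2 fold change from 0.13 to -0.29. Against IgG it changed them from 181 higher and 136 lower to 17 and 47.

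Cdk1 ranged from 1.19 to 489.6 TMM-scaled CPM after anti-SMARCA5 (median 179), from 42.7 to 697 after IgG (median 320) and from 226 to 481 in uninjected embryos (median 311). The groups overlapped, since 23 of 31 anti-SMARCA5 libraries lay within the range of IgG, but 8 lay below every IgG library and 19 below every uninjected one. The log2 fold change against IgG was -0.87 (SE 0.38, adjusted p = 0.14) and, with the block, -1.29 (SE 0.38, adjusted p = 0.0117). Against uninjected embryos it was -0.81 (SE 0.40, adjusted p = 0.114) and, with the block, -1.06 (SE 0.38, adjusted p = 0.0288).

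Of the 8 libraries below every IgG library, 4 were among the 7 of collection 3, 2 among the 7 of collection 2 and 2 among the 17 of collection 1. In collection 3 Cdk1 had a median of 21.1 after anti-SMARCA5 (1.19 to 179, 7 libraries), 258 after IgG (10 libraries) and 252 in uninjected embryos (225.5 to 467, 5 libraries), with no overlap between anti-SMARCA5 and uninjected. In collection 1 the medians were 268, 401 and 346, and the anti-SMARCA5 libraries of collection 2 had a median of 150.2 (3.50 to 489.6). Within collection 3 the log2 fold change against IgG was -2.03 (adjusted p = 0.0479), with Plk1 at -1.58 (adjusted p = 0.0404) the other of 2 members called (16.5% of genes called). Within collection 1 it was -0.83 (adjusted p = 0.174), and edgeR called 0 of 9 members (0.857% of genes called, 2 members at an unadjusted p under 0.05). The difference in this effect between collections 3 and 1 was not called for any of 9 members (edgeR interaction test, 0.366% of 10100 genes called, 1 member at an unadjusted p under 0.05), and was -1.13 for Cdk1 (SE 0.73, adjusted p = 0.468). IgG libraries carried no Trim21 RNA in collection 1, and most did in collection 3, so the controls of these collections differ.

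Wee2 ranged from 58.2 to 2048 after anti-SMARCA5 (median 302), from 64.5 to 2797 after IgG (median 225) and from 24.6 to 451 in uninjected embryos (median 166). It exceeded every uninjected library in 14 of 31 anti-SMARCA5 libraries and in 3 of 20 IgG libraries. Against uninjected embryos the log2 fold change was 1.49 (SE 0.42, adjusted p = 0.00903), and 0.86 with total counts only (adjusted p = 0.0796). Against IgG it was 0.45 (SE 0.41, adjusted p = 0.471), and 0.90 with the block (SE 0.35, adjusted p = 0.0475). In collection 3 all 7 anti-SMARCA5 libraries, from 563 to 2048, lay above all 5 uninjected ones, from 24.6 to 332 (log2 fold change 2.61, adjusted p = 0.00532), and in collection 1 the medians were 170 and 154 (0.63, adjusted p = 0.294). Within collection 3, 3 of 8 members were called against uninjected (26.7% of genes called). Within collection 1 none of 9 was (15.6% of genes called, 2 members at an unadjusted p under 0.05). The rise of Wee2 was no longer called without collection 1 (2.12, adjusted p = 0.112), where 1 of 10544 genes was called. Nor was it called without collection 3 (0.82, adjusted p = 0.155), where 2002 of 11142 genes were called.

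Cdc25b had a median of 34.7 TMM-scaled CPM after anti-SMARCA5 (0 to 102), 13.4 after IgG (3.45 to 76.3) and 16.5 in uninjected embryos (5.55 to 44.5). The groups overlapped, with 12 of 31 anti-SMARCA5 libraries above every uninjected one. Its log2 fold change was 1.05 against uninjected (SE 0.38, adjusted p = 0.0333), 0.61 with total counts only (adjusted p = 0.22), and 0.81 against IgG (SE 0.38, adjusted p = 0.159). Within collections 1 and 3 it was 1.13 and 1.19 against uninjected (adjusted p = 0.0575 and 0.0747). Without collection 1 it was 0.77 (adjusted p = 0.465, 1 of 10544 genes called). Without collection 3 it was 1.13 (adjusted p = 0.0633, 2002 of 11142 genes called). Of 14 alternatives, 7 called this rise.

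Plk1 had a median of 39.7 after anti-SMARCA5 (0 to 187), 96.0 after IgG (12.6 to 190) and 95.9 in uninjected embryos (42.2 to 198). Its log2 fold changes of -0.60 against IgG (SE 0.34, adjusted p = 0.245) and -0.79 against uninjected (SE 0.35, adjusted p = 0.0804) were not called, and with the block they were -0.90 (adjusted p = 0.0476) and -0.93 (adjusted p = 0.0377). In collection 3 all 7 anti-SMARCA5 libraries, from 11.9 to 39.7, lay below all 5 uninjected ones, from 42.2 to 198. Cdk1 and Wee2 were also without overlap in this comparison of 7 and 5 libraries. The share of all genes without overlap was not counted, so this describes the libraries and is no result about these members.

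Ccnb1 ranged from 155 to 996 after anti-SMARCA5 (median 520), from 231 to 1314 after IgG (median 695) and from 413 to 1173 in uninjected embryos (median 735). The groups overlapped, with 11 of 31 anti-SMARCA5 libraries below every uninjected one. Its log2 fold change was -0.40 against IgG (SE 0.19, adjusted p = 0.168) and -0.48 against uninjected (SE 0.19, adjusted p = 0.0506), neither of them called. Of 14 alternatives, 5 called the second: without the anti-SMARCA5 library of well C02 it was -0.50 (adjusted p = 0.0488), so 3 members were called (28% of genes), and with total counts only it was -0.83 (adjusted p = 0.0145). For Ccna2, medians were 612, 693 and 609 after anti-SMARCA5, after IgG and without injection, and for Ccnb2 they were 27.9, 31.1 and 30.4. Cdc25a had medians of 38.0, 31.6 and 46.1. Log2 fold changes of these 3 genes lay between -0.30 and 0.25 in both comparisons, none of them called.

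The remaining oocyte-specific members gave no call. Ccnb3 had a median of 12.4 TMM-scaled CPM after anti-SMARCA5 (0 to 55.8), 16.7 after IgG (0 to 149) and 4.73 in uninjected embryos (0 to 25.6), with log2 fold changes of -0.95 against IgG (adjusted p = 0.253) and 0.86 against uninjected (adjusted p = 0.29). Mos did not pass the filter: its medians were 0.755, 0.591 and 1.77, and 22 of 31, 15 of 20 and 10 of 15 libraries held at most 3 counts. In the fits without a filter its log2 fold change was 0.097 against IgG (95% interval -1.27 to 1.47) and -0.41 against uninjected (95% interval -1.82 to 0.995). Most libraries of these groups thus lay at the limit of detection for Mos.

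Marker levels differed between the collections too. The summed level of the 10 oocyte markers had a median of 1647 in collection 1 and 3647 in collection 3 after anti-SMARCA5, of 1270 and 2434 after IgG, and of 1636 and 1189 in uninjected embryos. After anti-SMARCA5, Bmp15 (647 and 2180) and Oosp1 (288 and 1001) had the largest medians in this sum. Of the 10, only Zp3 had a lower median in collection 3 than in collection 1 (14.59 and 33.95). The 7 measured 2-cell markers had medians of 886 and 147 after anti-SMARCA5, 884 and 665 after IgG, and 472 and 580 in uninjected embryos. Cumulus and granulosa markers ranged up to 132 after anti-SMARCA5, 25.6 after IgG and 20.0 in uninjected embryos. IgG libraries of collection 1 carried no Trim21 RNA. The part of any of these in the levels of Cdk1, Wee2 and Plk1 was not tested.

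Injection of IgG was compared with no injection. Trim21 RNA was at 0 in all 10 IgG libraries of collection 1 and in 2 of 10 of collection 3. The IgG group thus pools embryos with and without Trim21 RNA. None of 9 members was called, and none of 9915 genes was (0% called by edgeR, 1440 genes at an unadjusted p under 0.05, 261 called by DESeq2). Of the members, 3 had an unadjusted p under 0.05: Ccnb3 with a log2 fold change of 1.82 (adjusted p = 0.209), Wee2 with 1.04 (adjusted p = 0.245) and Cdc25a with -0.50 (adjusted p = 0.31). Cdk1 stood at 0.060 (95% interval -0.40 to 0.52) and Plk1 at -0.19 (95% interval -0.73 to 0.36). The IgG value of Wee2 was spread by a pair of collection 3 libraries at 1172 and 2797, and without collection 3 it was -0.24.

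**Figure D3:**
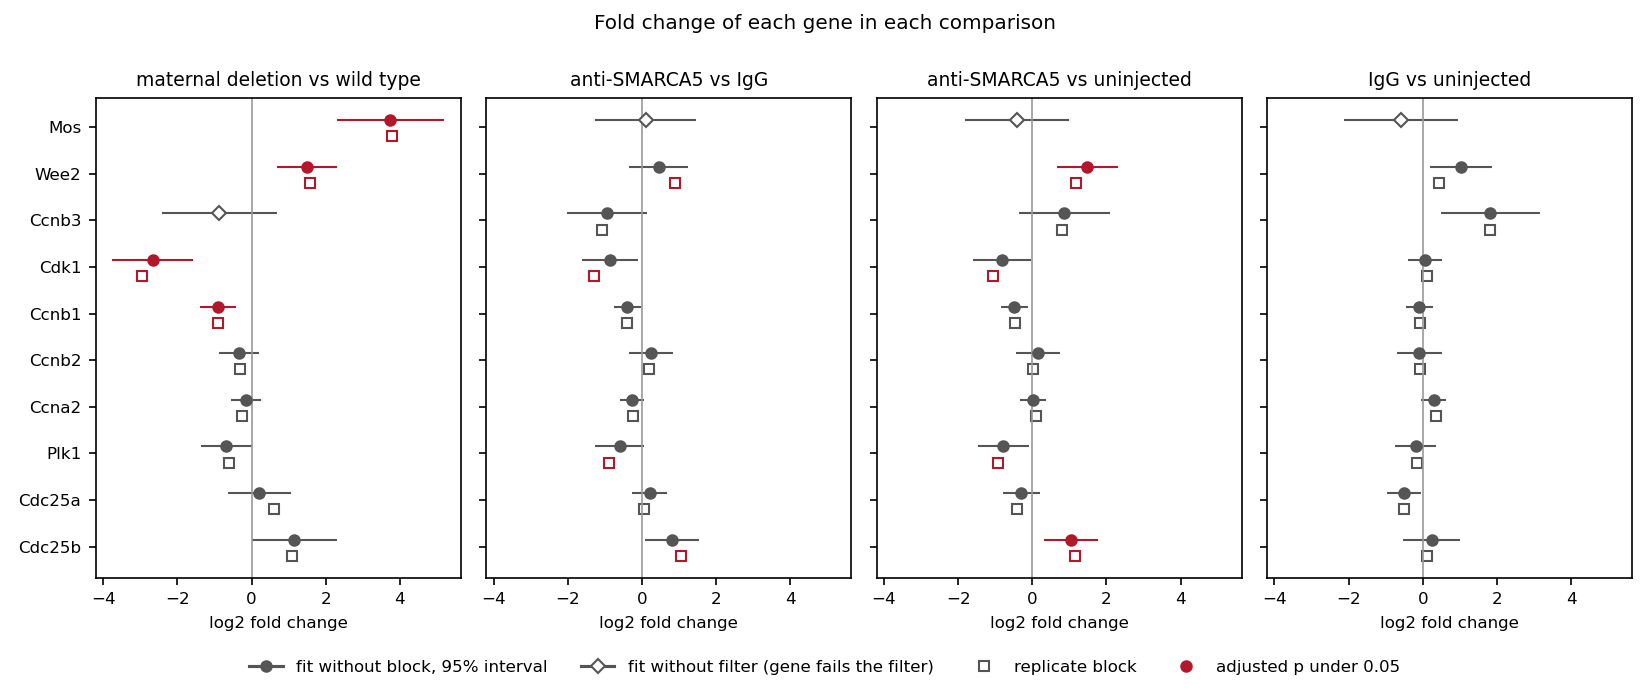
Log2 fold change of each gene in the 4 comparisons. Filled circles with 95% intervals come from the fit without the collection, diamonds from the fit without a filter for genes that fail it, and open squares from the fit with the collection as a block, with called values in red. Mos, Wee2, Cdk1 and Ccnb1 are red in the deletion, and Cdk1, Plk1, Wee2 and Cdc25b are red under the block against both TrimAway controls. Against uninjected embryos, Wee2 and Cdc25b are red without the block as well.

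The effect of the deletion and that of anti-SMARCA5 against IgG were compared in 1 fit of all 4 groups. Of the 10 members, 2 differed (19.2% of 12035 genes called): Mos by 3.46 on the log2 scale (SE 0.97, adjusted p = 0.00726), higher in the deletion, and Cdk1 by -1.87 (SE 0.69, adjusted p = 0.0438), lower in the deletion. For Mos, 22 of 31 anti-SMARCA5 and 15 of 20 IgG libraries held at most 3 counts. It passed the filter of this fit through the maternal deletion libraries, so its passing and its difference are not separate observations. With the collection in the fit, Mos differed by 3.37 (adjusted p = 0.0188) and Cdk1 by -1.61 (adjusted p = 0.0983), so 1 member was called (11.9% of genes). Without the libraries that go against their labels, 2 were called, 1 higher and 1 lower in the deletion (3265 of 11937 genes called). Those libraries include well A04, which had the highest Cdk1 of maternal deletion. With only libraries of at least 500000 counts, no member was called (1875 of 12841 genes called). Of 5 alternatives for this difference, 4 called Mos and 2 called Cdk1. For Wee2 the difference was 0.96 (95% interval -0.18 to 2.11, adjusted p = 0.239) and for Ccnb1 -0.61 (95% interval -1.21 to -0.0048, adjusted p = 0.152). These experiments also differ in lane and in controls, which cannot be told apart from the means of SMARCA5 loss.

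Single embryos within a group differed in the balance of Cdk1 and Wee2, a pair chosen after its values were seen. Over the 31 anti-SMARCA5 libraries, log2(CPM + 1) of both genes correlated with Pearson's r = -0.73 and Spearman's rho = -0.80, and r was -0.75 without the 2 libraries farthest from the median. Within collections 1, 2 and 3 r was -0.61, -0.84 and -0.51 (17, 7 and 7 libraries). The same sign appeared after IgG (r = -0.88, rho = -0.80, 20 libraries, and r = -0.57 and -0.94 within collections 1 and 3). It appeared in uninjected embryos (r = -0.55, rho = -0.49, 15 libraries) and in wild type (r = -0.62, rho = -0.69, 22 libraries, and r = -0.73 and -0.32 within collections 1 and 2). In maternal deletion r was -0.37 and rho -0.30 over 28 libraries, r was -0.17 without the 2 farthest, and r was 0.072 and -0.38 within collections 1 and 2.

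Cdk1 and Plk1 went up and down together in the TrimAway groups, with rho = 0.89 after anti-SMARCA5, 0.83 after IgG and 0.63 without injection (r = 0.62, 0.86 and 0.64). Within collections 1, 2 and 3 of the anti-SMARCA5 group rho was 0.91, 0.93 and 0.64. In wild type rho was 0.28 and in maternal deletion 0.15. Cdk1 and Ccnb1 gave rho = 0.56, 0.82 and 0.53 in the same TrimAway groups, 0.56 in wild type and 0.044 in maternal deletion, with 0.87, 0.96 and 0.29 within the anti-SMARCA5 collections. Within collections 1 and 2 this rho was 0.095 and 0.336 in wild type, and -0.155 and 0.288 in maternal deletion. The wild-type value over both collections thus includes the difference between them. In each embryo both genes of a pair share the scaling and the depth of its library, and no test was made on these correlations.

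**Figure D4:**
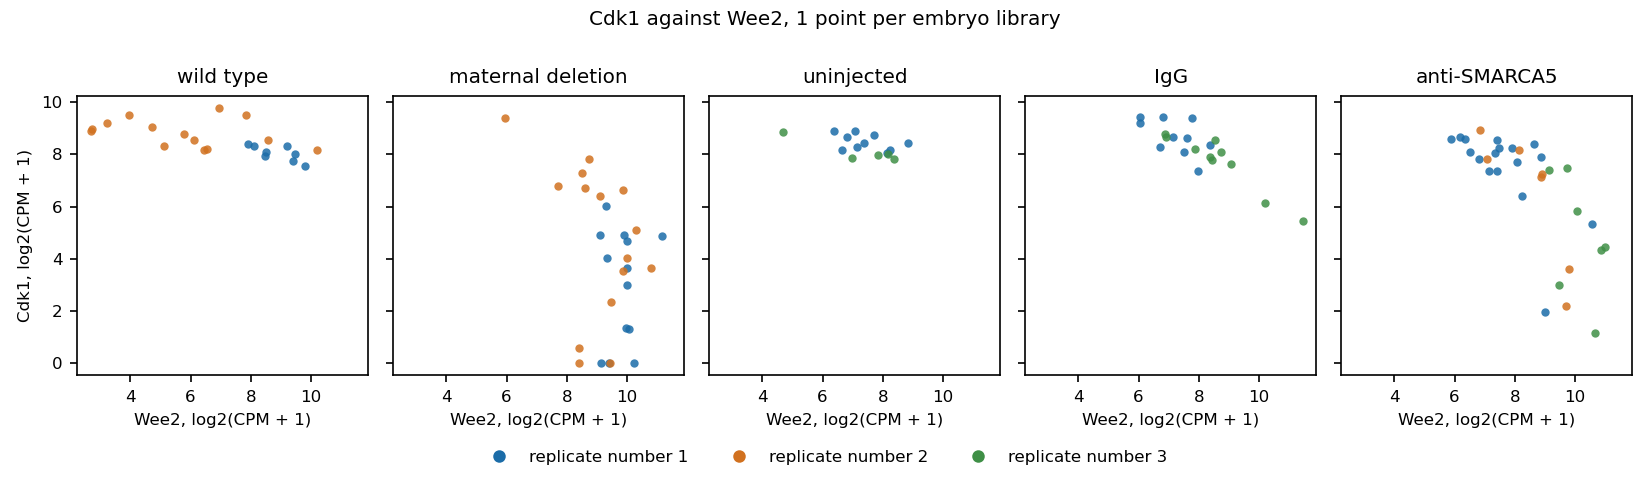
Cdk1 (vertical axis) against Wee2 (horizontal axis) in each group, both as log2(TMM-scaled CPM + 1), 1 point per embryo library, coloured by replicate number. Points slope downwards in the TrimAway groups and in wild type. The single maternal deletion point at the upper left, with the highest Cdk1 and the lowest Wee2 of that group, is well A04.

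Other genes of the same pathways were followed as lists written from general knowledge. Of 13 further cyclins, CDKs and activators tested in the deletion, 1 was called higher and 5 lower, with a median log2 fold change of -1.06, against 30.3% called higher, 26.4% lower and a median of 0.18 over all genes. The shares of all genes called apply to each of the lists that follow. Ccnd3, a cyclin of the entry into the cell cycle, rose by 2.28 (adjusted p = 3.54e-06), and Ccnf, a cyclin-like subunit of a ubiquitin ligase, fell by 2.80 (adjusted p = 2.48e-05). Cdk2, which pairs with E- and A-type cyclins, fell by 2.34 (adjusted p = 9.34e-05), from a median of 118 TMM-scaled CPM to 8.38. Ccna1, the germline A-type cyclin, was at 0 in all 22 wild-type libraries and in 27 of 28 maternal deletion ones.

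Among 6 genes that set the tyrosine phosphorylation of Cdk1, Cdc25c, the third Cdc25 phosphatase, fell by 2.62 (adjusted p = 4.8e-05), from a median of 301 to 14.1, and Chek1, a checkpoint kinase that inhibits Cdc25 proteins, rose by 1.08 (adjusted p = 0.0059). Wee1, the somatic relative of Wee2, had medians of 20.1 in wild type and 12.9 in maternal deletion (log2 fold change -0.75, adjusted p = 0.17). Pkmyt1, the membrane-bound inhibitory kinase, stood at 24.7 and 32.5 (0.52, adjusted p = 0.362). Of the 3 kinases, Wee2 was called and the other two were not, and the difference between them was not tested.

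Of 10 genes of the Greatwall and Plk1 branch, 3 were called higher and 2 lower, near the 56.6% of all genes called. Mastl, the Greatwall kinase, rose by 1.42 (adjusted p = 0.0001), and Aurka, which activates Plk1, fell by 2.23 (adjusted p = 4.68e-05). In the pathway from Mos to MAP kinase, 4 of 8 were called higher and 1 lower, again near that share, with a median of 0.996 on the log2 scale. Mapk3, a MAP kinase at the end of that cascade, rose by 2.66 (adjusted p = 0.000152), and Map2k2, a kinase one step above it, fell by 2.73 (adjusted p = 0.000508). Fbxo43, the Emi2 inhibitor of the anaphase-promoting complex that Mos signalling protects, had a log2 fold change of 1.05 (adjusted p = 0.0619). Of 4 genes of prophase arrest, 2 were called higher, led by Pde3a, the oocyte's cAMP phosphodiesterase, at 2.74 (adjusted p = 1.57e-05). Each call named in these lists held with total counts as the only scaling.

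Over all lists, 11 of 41 genes tested were called higher and 9 lower in the deletion, and 8 and 13 with total counts only, where 56.6% of all genes were called. Against IgG, 1 of 43 was called after anti-SMARCA5, the receptor Gpr3, which keeps cAMP high in the arrested oocyte, at -0.76 (adjusted p = 0.0413), named after its value was seen (3.03% of all genes called). With the block, 6 genes were called higher and 3 lower (28.1% of all genes called). Against uninjected embryos 9 of 43 were called higher and 4 lower (27.9% of all genes called). With total counts only, none was called higher and 6 were called lower (21.2% of all genes called). None of 43 was called by edgeR for IgG against uninjected. Cdc25c, Wee1 and Pkmyt1 had no call in any TrimAway comparison, with or without the block. Cdk2 was called against uninjected embryos with the block, at -0.99 (adjusted p = 0.0224), and not without it, at -0.81 (adjusted p = 0.0711). Mastl had a log2 fold change of 0.91 against uninjected embryos (adjusted p = 0.00786), which was 0.35 and not called with total counts as the only scaling (adjusted p = 0.197).

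Genes whose pattern was most like a member were sought for Ccnb1 and Mos by Spearman's rho of log2(CPM + 1). Over the 50 libraries of the deletion experiment and 5260 genes, Cnbp (0.84), Tpd52l2 (0.83) and Eif4a1 (0.82) were nearest to Ccnb1. For Mos they were Npc1 (0.80), H1foo (0.78), which encodes the oocyte's linker histone, and Nceh1 (0.78). Over the 66 TrimAway libraries and 6383 genes, Hnrnpf (0.81), Mrpl40 (0.79) and Erh (0.78) were nearest to Ccnb1, and no gene came closer to Mos than Upf1 (0.45). None of the nearest genes was shared between the experiments. These are descriptions across libraries that also differ by group and collection.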

How the data were processed

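The deposited values are whole-number counts per gene and library, in 1 table per experiment. Per the submitters' processing notes, reads were trimmed with Trim Galore 0.6.5 and cutadapt 2.3 and aligned with HISAT2 2.1.0 to GRCm38. The counting tool, the gene models, strand, multi-mapping and duplicate removal are not given in the sources used here. Lines with the same identifier (57 identifiers) were summed, which left 25900 genes, and libraries under 100000 total counts and 3 wells without an embryo were left out. Kept libraries held 109007 to 12004992 counts, and their depth limits what can be seen of genes at or under 3 counts.

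Each comparison was fitted over all genes with edgeR 4.0.16 in R 4.3.3 (TMM scaling, filterByExpr, robust quasi-likelihood test, Benjamini-Hochberg adjustment over all genes tested, threshold 0.05), after tests on simulated data. SE is the log2 fold change divided by the root of F. Alternatives were DESeq2 1.42.0, other scalings, filters and depth minimums, the collection as a block, left-out collections and libraries that go against their labels. Replicate numbers mark pools, per the labels, so they pair the groups, and deviations of same-numbered pools correlated at 0.485 for the deletion, 0.555 against IgG, 0.075 against uninjected and 0.406 for IgG against uninjected. The levels shown were TMM-scaled separately for each experiment. Each fit was scaled over its own libraries, so the fit of all 4 groups scaled both experiments together. All 10 members are named, and from the context lists the closest relatives of the members and the largest called rise and fall of each list in the deletion. For Ccnb1 and Mos the 3 genes with the highest Spearman's rho are named, among genes with a mean log2(CPM + 1) of at least 4. The members and lists were chosen with earlier results of these data known.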

Additional observations from a re-analysis of the deposited data

Results flagged for a closer look

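The effect of the deletion and that of anti-SMARCA5 against IgG differed for 2 members by a contrast within 1 edgeR fit. The difference was 3.46 on the log2 scale for Mos (adjusted p = 0.00726) and -1.87 for Cdk1 (adjusted p = 0.0438). With the collection in the fit, Mos kept its call (3.37, adjusted p = 0.0188) and Cdk1 did not (-1.61, adjusted p = 0.0983). Of 5 alternatives, 4 called Mos and 2 called Cdk1. Most TrimAway libraries lay at the limit of detection for Mos, which passed the filter through the maternal deletion libraries. In a well without an embryo that held 1875 counts in all, Ccna2 had 7 counts, the highest of any member in the 3 such wells, which held between 1 and 11 counts of members in all.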

How the results depend on the processing

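Of the alternative values of single members, 479 kept their direction and their side of the threshold, 25 passed it newly, 16 no longer passed it and 33 changed sign. With total counts as the only scaling, 7 members were called in the deletion (4822 of 8518 genes called). For the difference between the experiments 1 was called, Mos (2441 of 12035 genes called). Against uninjected 1 was called, Ccnb1 and lower, and Wee2 and Cdc25b lost their calls (2283 of 10750 genes called). With libraries of at least 500000 counts, 1 was called against uninjected (2611 of 10945 genes called). For the difference between the experiments 0 were (1875 of 12841 genes called). With the replicate block, 4 were called against IgG, 4 against uninjected and 1 for that difference, and the block changed no other count of calls. Leaving out 1 collection gave 0 to 2 calls against uninjected. Without collections 1, 2 and 3 in turn, 1 of 10544, 2921 of 10283 and 2002 of 11142 genes were called. Within collections, an alternative chosen after seeing the data, 2 were called against IgG in collection 3 and 0 against uninjected in collection 1. Without the libraries that go against their labels, 1 member was called for the difference between the deletion's collections, and the matching test against IgG has no such value because it does not use the doubted library.

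None of the values that changed sign was called in the report, and the cause was not tested. Leaving out a collection moved Ccnb2 from -0.73 to 0.48 in the deletion, from -0.20 to 0.89 against IgG, from -0.18 to 0.66 against uninjected and from -0.22 to 0.053 for IgG against uninjected. It moved Ccna2 from -0.12 to 0.25 against uninjected. For IgG against uninjected it moved Ccnb1 from -0.32 to 0.12, Cdk1 from -0.20 to 0.32, Cdc25b from -0.061 to 0.25, Wee2 from -0.24 to 1.69 and Plk1 from -0.54 to 0.10. With total counts only, Cdc25a was -0.023 in the deletion, Ccnb2 was -0.11 against IgG and -0.39 against uninjected, and Ccna2 was -0.35 against uninjected and -0.069 for the difference between the experiments. In that scaling, Cdk1 was -0.11 and Cdc25b -0.032 for IgG against uninjected, and Cdc25b was -0.30 for the difference between the deletion's collections. That last value was -0.70 with libraries of at least 500000 counts and -0.060 without a filter, and Cdk1 was -0.015 for IgG against uninjected with such libraries. Against uninjected, DESeq2 gave Ccnb2 -0.0062 and Ccna2 -0.096, and DESeq2's size factors in edgeR gave -0.0049 and -0.096. Within collection 1, Ccnb2 was -0.41 and Cdc25a -0.095 against IgG, and Ccnb2 was -0.38 and Ccna2 -0.019 against uninjected. For the difference between the experiments, Cdc25a was 0.55 and Plk1 0.35 with the replicate block, and 0.19 and 0.20 without the libraries that go against their labels.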
